A study of Homo sapiens with 8 samples.

Results

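ANKRD37, FUT11, LOC105370526, LOC100506272, NEDD9, UBASH3A, MBOAT4 and CEACAM22P were followed as less familiar genes with more gene body reads in HCT116 cells kept in low oxygen. They are 8 of 23193 genes counted. They were chosen by their gene body reads in WT hypoxia against WT normoxia, so their WT response is described here with no test, as is every comparison of theirs that uses the WT libraries. Their response in HIF1A-/- cells did not enter the choice and was tested.

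HCT116 is an established human colorectal carcinoma line, and its HIF1A-/- derivative lacks a working copy of the gene for the oxygen-regulated subunit of HIF1. PRO-seq lets engaged RNA polymerases in isolated nuclei extend their RNA with a biotin-labelled nucleotide, so that a read marks a polymerase at work. The 4 groups were WT normoxia, WT hypoxia, HIF1A-/- normoxia and HIF1A-/- hypoxia, hypoxia being 1% O2 for 90 min, and all cultures received DMSO as a vehicle. Each group had 2 libraries, made from separately prepared nuclei, and 8 libraries were used in all. HIF1A-/- and WT cells were compared as 1 line each, so the loss of HIF1A and any other difference between the lines cannot be told apart.

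Each library had between 18125234 and 23622392 reads in gene bodies, and between 2783581 and 5966348 in the regions around transcription start sites (TSS). Among the colorectal epithelium markers, KRT8, KRT18, KRT19, EPCAM and CDH1 each had at least 916 gene body reads in every library, and CDX2 had 271 to 404. The others were low, with 15 to 30 reads at LGALS4, 0 to 15 at VIL1 and 0 to 5 at CDX1. Of the fibroblast and endothelial markers, COL1A2, DCN, LUM and PECAM1 had at most 6 reads and CDH5 had 4 to 39, but COL1A1 had 417 to 1188 and VWF 172 to 619. Gene body levels of HIF1A itself lay between 130 and 161 CPM (reads scaled to library size) in the 4 WT libraries and between 137 and 175 CPM in the 4 HIF1A-/- libraries, so the count over the whole gene does not show the disruption. All bodies lying wholly inside another gene's body on the same strand, 437 genes, were listed at 0 reads, against 21.1% of the 876 that lay inside a body on the opposite strand only. The counting therefore kept the strands apart and dropped reads shared by overlapping genes of one strand.

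In well-oxygenated cells HIF1A protein is hydroxylated and destroyed. When oxygen falls it accumulates, pairs with ARNT and binds the core motif ACGTG or GCGTG near target genes. At many human genes polymerases start, pause a short way downstream and are released into the gene body later, so reads at the start and in the body can change separately. The genes followed here have little else in common. ANKRD37 encodes a small ankyrin repeat protein and is a known HIF target. FUT11, named POFUT4 in the current RefSeq table, encodes a fucosyltransferase of the secretory pathway. LOC105370526, now HIF1A-AS3, and LOC100506272, now LINC02492, are long non-coding RNAs, and CEACAM22P is a transcribed pseudogene of the carcinoembryonic antigen family. NEDD9 encodes a CAS family scaffold of focal adhesion signalling. UBASH3A encodes a suppressor of T cell receptor signalling. MBOAT4 encodes the acyltransferase that activates the hormone ghrelin.

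The sequence just upstream of a start is where HIF motifs of a promoter would lie. It is shown for the 3 genes with the clearest reads at their start. It is also shown for NEDD9, whose chosen start had no listed reads. The letters were read from GRCh37 on the strand of each gene, 5′ to 3′, and capitals mark ACGTG or GCGTG on either strand (CACGT and CACGC are the same motifs read from the opposite strand). The ANKRD37 window is chr4:186317589-186317838, plus strand. The FUT11 window is chr10:75531920-75532033, plus strand, cut short where annotated transcripts begin. The LOC105370526 window is chr14:62217816-62218065, minus strand, and the NEDD9 window is chr6:11382582-11382831, minus strand.
ANKRD37: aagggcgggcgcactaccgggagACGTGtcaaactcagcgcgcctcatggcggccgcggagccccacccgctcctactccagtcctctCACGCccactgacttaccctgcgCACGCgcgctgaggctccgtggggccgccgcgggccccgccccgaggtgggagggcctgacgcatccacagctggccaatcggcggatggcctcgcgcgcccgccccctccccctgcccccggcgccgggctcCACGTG
FUT11: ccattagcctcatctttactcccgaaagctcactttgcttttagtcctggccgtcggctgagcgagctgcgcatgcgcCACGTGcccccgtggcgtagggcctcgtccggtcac
LOC105370526: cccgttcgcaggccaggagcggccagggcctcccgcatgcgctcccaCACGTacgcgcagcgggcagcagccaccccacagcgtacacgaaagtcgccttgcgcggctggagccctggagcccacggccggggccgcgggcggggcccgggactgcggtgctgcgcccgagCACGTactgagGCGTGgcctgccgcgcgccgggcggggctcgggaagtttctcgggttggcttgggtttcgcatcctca
NEDD9: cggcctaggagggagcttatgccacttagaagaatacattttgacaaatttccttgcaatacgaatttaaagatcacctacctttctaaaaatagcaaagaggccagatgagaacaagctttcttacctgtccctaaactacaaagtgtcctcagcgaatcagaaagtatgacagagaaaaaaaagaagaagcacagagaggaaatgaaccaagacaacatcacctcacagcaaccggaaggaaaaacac

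In the 250 bases before the start, ACGTG on either strand was present in 3 of the 8 genes, ANKRD37, FUT11 and LOC105370526, against 19.0% of all 23193 genes. GCGTG was present in 5 of the 8, against 35.9% of all, and either motif in 6 of the 8, against 47.0%. A CACGTG, as at ANKRD37 and FUT11, holds ACGTG on both strands. NEDD9 and CEACAM22P had neither motif in this window. The GC content of the window was 75.6% at ANKRD37 and 74.4% at LOC105370526, 51.6% at FUT11, and 34.4% to 52.0% at the other 5 genes, with a median of 59.6% over all genes. The TSS regions of LOC100506272, NEDD9, UBASH3A and MBOAT4 were listed at 0 reads in all 8 libraries. Their windows are therefore not shown to be promoters in use, and the counts over 8 genes include them. These matches describe letters in a window and say nothing of binding.

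Gene body levels were compared per library as CPM after TMM scaling, where a body runs from about 1 kb after the start to the end of the shortest annotated form, introns included. Bodies were 2.6 kb at ANKRD37, 2.9 kb at FUT11, 12 kb at MBOAT4, 18.1 kb at CEACAM22P, 34.5 kb at LOC105370526, 42.8 kb at UBASH3A, 138.8 kb at LOC100506272 and 198.1 kb at NEDD9. All 8 passed the filter on low values, more than 0.5 CPM in at least 2 libraries, which 16686 of the 23193 bodies passed. UBASH3A, with at most 0.460 CPM in the HIF1A-/- libraries, passed through its WT libraries only. In bulk nuclei, more transcription per cell and a larger share of transcribing cells cannot be told apart.

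ANKRD37 had few body reads in all libraries other than those of WT hypoxia. Its body (chr4:186318840-186321399) had 1.93 and 2.04 CPM in the WT normoxia libraries, from 39 and 37 reads. In WT hypoxia it had 26.6 CPM in replicate 1 and 85.9 CPM in replicate 2, from 504 and 2070 reads. Both hypoxic libraries lay far above both normoxic ones, yet differed from each other by 3.22-fold. The fitted log2 difference was 4.82 (SE 0.556), or 28.3-fold. The levels in HIF1A-/- cells were 1.53 and 1.52 CPM in normoxia and 1.10 and 1.55 CPM in hypoxia, from 22 to 33 reads. There the groups overlapped, and the log2 difference was -0.20 (SE 0.597, edgeR adjusted p = 1).

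FUT11 was well transcribed in every library. Its body (chr10:75533049-75535977) had 20.7 and 17.2 CPM in WT normoxia and 50.9 and 59.1 CPM in WT hypoxia. The 2 hypoxic libraries were close to each other and above both normoxic ones, with a log2 difference of 1.54 (SE 0.258), or 2.90-fold. The HIF1A-/- libraries had 25.1 and 15.6 CPM in normoxia and 20.2 and 15.3 CPM in hypoxia. In each oxygen condition replicate 1 of the HIF1A-/- cells was the higher, and the conditions overlapped (log2 difference -0.19, SE 0.256, edgeR adjusted p = 1).

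LOC105370526 lies antisense to HIF1A and had the largest log2 difference of the 8 genes. Its body (chr14:62182275-62216814) had 2.92 and 2.48 CPM in WT normoxia and 69.1 and 120 CPM in WT hypoxia, from 1307 and 2899 reads. The log2 difference was 5.13 (SE 0.478), or 34.9-fold. HIF1A-/- cells had more of it than WT cells in normoxia, at 11.1 and 4.65 CPM. They had 9.31 and 7.32 CPM in hypoxia. The HIF1A-/- groups overlapped, with a log2 difference of 0.08 (SE 0.415, edgeR adjusted p = 1). The 95% interval of that estimate ran from -0.73 to 0.89.

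LOC100506272 had far more reads in WT than in HIF1A-/- cells in both conditions. Its body (chr4:188454031-188592794) had 10.4 and 15.2 CPM in WT normoxia and 45.4 and 86.0 CPM in WT hypoxia (log2 difference 2.36, SE 0.406). The HIF1A-/- libraries had only 5 and 18 reads in normoxia and 18 and 24 reads in hypoxia, or 0.239 and 0.828 CPM against 0.901 and 1.13 CPM. Both hypoxic libraries of the HIF1A-/- cells were above both normoxic ones, but the difference of 0.91 (SE 0.627, edgeR adjusted p = 1) rested on few reads. Without HIF1A-/- normoxia replicate 1 it was 0.28, and without replicate 2 of that group it was 2.08, neither of which was called.

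CEACAM22P was weakly transcribed. Its body (chr19:45041044-45059149) had 0.991 and 1.32 CPM in WT normoxia and 4.07 and 5.43 CPM in WT hypoxia, from 20 to 131 reads. The hypoxic libraries lay above the normoxic ones, with ratios of 4.11 and 4.10 within replicates 1 and 2 (log2 difference 2.04, SE 0.464). The levels in HIF1A-/- cells were 1.20 and 1.75 CPM in normoxia and 1.70 and 3.52 CPM in hypoxia. These ranges just overlapped, and the log2 difference of 0.82 (SE 0.453) was not called (edgeR adjusted p = 1). Without HIF1A-/- hypoxia replicate 2 it was 0.20, and without replicate 1 of that group 1.27, with no call in either fit.

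NEDD9 had estimates of similar size in WT and HIF1A-/- cells. Its body (chr6:11183530-11381580) had 2.43 and 3.86 CPM in WT normoxia and 5.07 and 10.3 CPM in WT hypoxia (log2 difference 1.30, SE 0.417). Levels without HIF1A were 2.97 and 4.09 CPM in normoxia and 7.11 and 9.20 CPM in hypoxia, from 62, 89, 142 and 196 reads. The HIF1A-/- groups did not overlap, and hypoxia over normoxia was 2.40 within replicate 1 and 2.25 within replicate 2. The log2 difference of 1.21 (SE 0.412) had an unadjusted p of 0.0193 by edgeR's quasi-likelihood test but an adjusted p of 1 over all genes, and with the replicate number as a block the adjusted p was 0.158, so the gene was not called. The difference between the genotypes' responses was 0.09 on the log2 scale (SE 0.580, 95% interval -1.04 to 1.23). This interval, from the fit without the replicate block, also holds differences of about 2-fold either way.

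UBASH3A gave the fewest reads. Its body (chr21:43824971-43867790) had 0.842 and 1.49 CPM in WT normoxia and 2.54 and 5.93 CPM in WT hypoxia, from 17, 27, 48 and 143 reads. HIF1A-/- cells had 0 and 10 reads (0 and 0.460 CPM) in normoxia and 2 and 8 reads (at most 0.375 CPM) in hypoxia, so that 1 library of each group was at or under a floor of 3 counts. The log2 difference was 1.87 (SE 0.869) in WT cells. In HIF1A-/- cells it was 0.05 (SE 1.22, edgeR adjusted p = 1), and the 95% interval ran from -2.35 to 2.44 and so holds the WT estimate. Without HIF1A-/- normoxia replicate 2 the estimate in HIF1A-/- cells was 5.36, and without HIF1A-/- hypoxia replicate 2 it was -1.18, with no call in either fit. Of the 10 T cell markers, 3 passed the filter on low values in these epithelial cells. They were CD247 with 195 to 808 reads per library, CD8A with 56 to 188 and CD4 with 1 to 41, and the first and second had more reads than UBASH3A. CD3D had 0 reads in all 8 libraries, CD2, CD3G, LCK and ZAP70 had at most 4, CD3E at most 8 and PTPRC at most 10. The list summed to 22.9 to 36.7 CPM in WT normoxia, 33.0 to 43.9 in WT hypoxia, 12.9 to 28.2 in HIF1A-/- normoxia and 19.1 to 31.0 in HIF1A-/- hypoxia, and its part in the UBASH3A levels was not tested.

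MBOAT4 had low levels that differed between the lines in both conditions. Its body lies on chromosome 8 (chr8:29989186-30001199) and had 1.83 and 3.42 CPM in WT normoxia and 4.70 and 6.51 CPM in WT hypoxia, from 37, 62, 89 and 157 reads. The groups were separate, with a log2 difference of 1.10 (SE 0.412). HIF1A-/- cells had 0.861 and 0.782 CPM in normoxia and 0.651 and 0.985 CPM in hypoxia, from 13 to 21 reads. The groups overlapped, and the log2 difference was -0.0025 (SE 0.478, edgeR adjusted p = 1). GHRL, whose product MBOAT4 acylates, had 22 to 65 body reads and was not called in either genotype (log2 difference 0.26, SE 0.483, adjusted p = 0.920 in WT cells, and 0.75, SE 0.478, adjusted p = 1 without HIF1A). Of the other genes listed for ghrelin cells, ACSL1 had 524 to 733 reads in every library, while CHGA and PCSK1 had at most 2. Whether ACSL1 is particular to such cells was not tested.

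**Figure D1:**
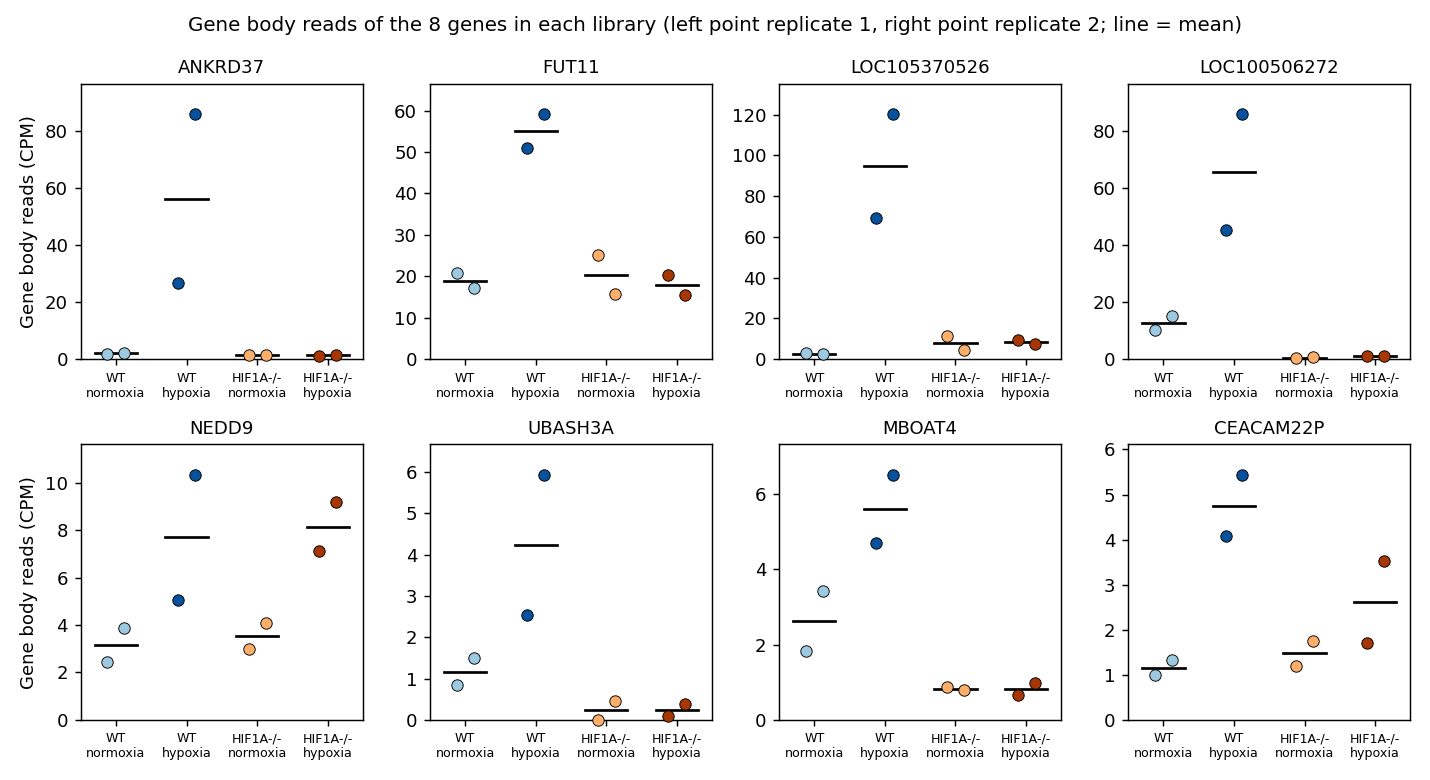
Gene body reads (CPM, linear axis from 0 in each panel) of the 8 genes in the 8 libraries, 2 points per group (left replicate 1, right replicate 2) with a line at the mean. WT hypoxia is the highest group in all panels except that of NEDD9, where HIF1A-/- hypoxia reaches 9.20 CPM, between the 2 WT hypoxia libraries.

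Per unit of length, the levels of the 8 genes spread widely. In WT normoxia FUT11 had 6.47 ± 0.832 RPKM (CPM divided by the body length in kb, SD, n = 2), above 92.1% of the bodies tested, and ANKRD37 had 0.776 ± 0.0302 RPKM, below the median of all bodies, 1.31 RPKM. The other 6 genes lay between 0.0159 RPKM at NEDD9 and 0.219 RPKM at MBOAT4, all in the lowest 20.5% of bodies. In WT hypoxia ANKRD37 reached 22.0 ± 16.4 RPKM and FUT11 18.8 ± 1.99 RPKM, which do not differ beyond the spread of the ANKRD37 libraries. LOC105370526 came next at 2.74 ± 1.05 RPKM. LOC100506272 with 0.474 ± 0.207 RPKM and MBOAT4 with 0.467 ± 0.107 RPKM could not be separated, and CEACAM22P (0.262), UBASH3A (0.0989) and NEDD9 (0.0389 RPKM) followed. Hence 5 of the 8 genes were still below the median body of 1.30 RPKM in WT hypoxia.

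Set side by side, both WT hypoxia libraries were above both WT normoxia libraries in 8 of 8 genes, the pattern they were chosen for. The share of all tested bodies with that order was 18.3%. In HIF1A-/- cells the same order held for 2 of the 8, LOC100506272 and NEDD9, against 12.1% of all bodies. None of the 8 was called in HIF1A-/- hypoxia against HIF1A-/- normoxia by edgeR at an FDR of 10%, and neither was any other of the 16686 bodies (0% in either direction). With the replicate number as a block, 0 of the 8 were called, where 0.03% of all bodies were called higher and 0.00599% lower. At an unadjusted p under 0.05, 1 of the 8 passed, NEDD9, and 175 bodies were higher and 172 lower among all. DESeq2 called 8 bodies in all, none of them among the 8 genes. The median log2 difference over the 8 genes was 1.95 in WT cells and 0.06 in HIF1A-/- cells, beside medians of -0.02 and 0.00 over all bodies.

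**Figure D2:**
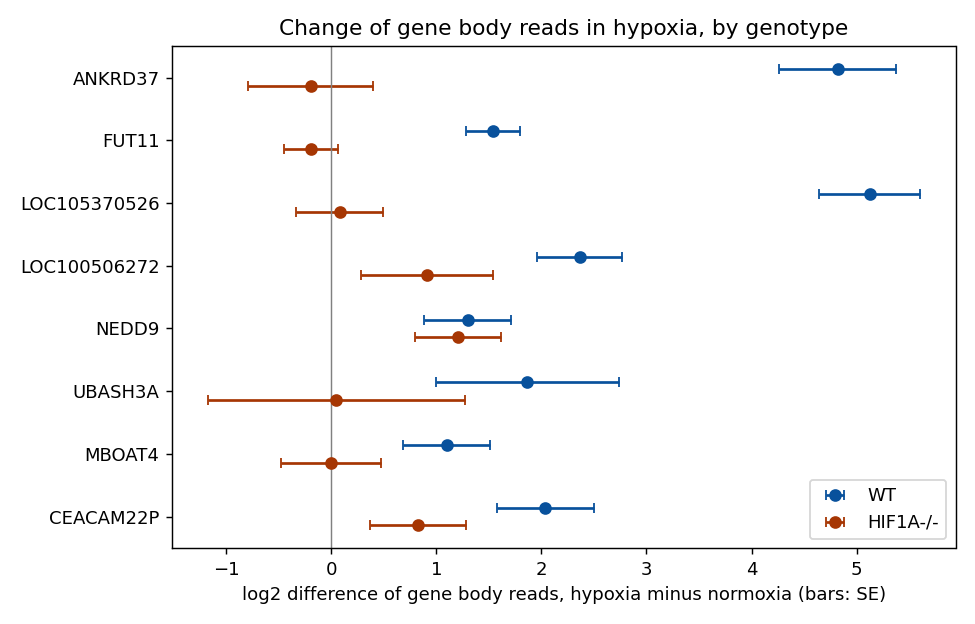
Log2 difference of gene body reads, hypoxia minus normoxia, for the 8 genes in WT (blue) and HIF1A-/- (brown) cells, with bars of 1 SE. The WT values run from 1.10 to 5.13. Those of the HIF1A-/- cells run from -0.20 to 1.21, and only those of NEDD9 lie side by side.

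The difference between the responses, WT minus HIF1A-/-, was positive in 8 of 8 genes, which the choice by the WT response favours. It was 5.05 (SE 0.618) on the log2 scale at LOC105370526, 5.02 (SE 0.799) at ANKRD37 and 1.73 (SE 0.362) at FUT11. It was smaller against its error at UBASH3A (1.82, SE 1.52), LOC100506272 (1.45, SE 0.763), CEACAM22P (1.21, SE 0.643), MBOAT4 (1.10, SE 0.629) and NEDD9 (0.09, SE 0.580). Without HIF1A-/- normoxia replicate 2 it was -3.48 at UBASH3A and 0.30 at LOC100506272.

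Without hypoxia, the lines already differed at several of the genes. In normoxia both HIF1A-/- libraries were below both WT libraries for 4 of the 8 genes, ANKRD37, LOC100506272, UBASH3A and MBOAT4, against 17.4% of all bodies. The log2 difference, HIF1A-/- minus WT, was -4.56 (SE 0.531) at LOC100506272, -2.29 (SE 1.05) at UBASH3A, -1.67 (SE 0.450) at MBOAT4 and -0.38 (SE 0.577) at ANKRD37. The value at UBASH3A rests on HIF1A-/- libraries of 0 and 10 reads and was -7.57 without replicate 2 and -1.28 without replicate 1 of HIF1A-/- normoxia. LOC105370526 alone was higher in both HIF1A-/- libraries, by 1.54 (SE 0.453), an order seen in 14.9% of all bodies, and by 0.82 without HIF1A-/- normoxia replicate 1. FUT11 (0.10), NEDD9 (0.17) and CEACAM22P (0.35) overlapped between the lines. The choice of the genes by their WT hypoxia reads favours lower values of the HIF1A-/- cells in hypoxia. In hypoxia both HIF1A-/- libraries were below both WT libraries for 7 of the 8 genes, all but NEDD9, against 24.6% of all bodies. The differences there ran from -6.01 (SE 0.510) at LOC100506272 to -0.86 (SE 0.435) at CEACAM22P, while NEDD9 differed by 0.08 (SE 0.399). At CEACAM22P it was -0.42 without HIF1A-/- hypoxia replicate 1 and -1.50 without replicate 2.

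The WT hypoxia libraries were unequal at these genes. Replicate 2 exceeded replicate 1 in 8 of 8, by ratios from 1.16 at FUT11 to 3.22 at ANKRD37, where the median ratio over all bodies was 0.997. In WT normoxia replicate 2 was the higher at 6 of the 8 genes and the lower at FUT11 and LOC105370526. Within replicate 1 alone, hypoxia over normoxia was 13.8 at ANKRD37, 23.6 at LOC105370526, 4.39 at LOC100506272, 2.46 at FUT11 and 2.09 at NEDD9. Within replicate 2 it was 42.1, 48.4, 5.65, 3.43 and 2.67 at the same genes. At UBASH3A the ratio was 3.01 in replicate 1 and 3.98 in replicate 2. CEACAM22P had 4.11 and 4.10, and MBOAT4 had the larger ratio in replicate 1, 2.57 against 1.90. The direction was the same in both replicates for all 8 genes, as their choice favours, and the ratio was larger in replicate 2 for 6 of them. Leaving out WT hypoxia replicate 2 gave log2 differences of 0.69 at NEDD9, 1.12 at UBASH3A and 3.74 at ANKRD37, and leaving out WT normoxia replicate 1 gave 0.71 at MBOAT4.

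At the start of the genes, within 50 bp before to 500 bp after the single start chosen per gene, the 8 genes split evenly. ANKRD37, FUT11, LOC105370526 and CEACAM22P passed the filter on low values in the TSS table, as did 15212 genes. LOC100506272, NEDD9, UBASH3A and MBOAT4 were listed at 0 TSS reads in all 8 libraries, which was so for 1126, or 6.75%, of the 16686 genes with tested bodies. A stretch as long as the TSS region would hold, at the read density of the body and summed over the 8 libraries, 13.8 reads at LOC100506272, 19.0 at MBOAT4, 3.28 at UBASH3A and 2.65 at NEDD9. A count of 0 is thus below the density of the body at LOC100506272 and MBOAT4, whereas at NEDD9 and UBASH3A the depth gives no contrast. Whether these starts were unused or their reads were dropped in counting cannot be told apart from the files, so the 0 is given as listed and not as a level. No other TSS region overlapped those of the 8 genes.

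Other annotated starts were present for several of them. Of the 20 GENCODE transcripts of LOC100506272 none began in the chosen TSS region and 18 began in the region counted as body. For NEDD9 the figures were 16 transcripts, 12 beginning in the TSS region and 4 in the body, and for UBASH3A 9 transcripts with 8 in the TSS region and 0 in the body. MBOAT4 had 1 transcript, which began in its TSS region. At CEACAM22P 1 of 3 transcripts began in the TSS region and 1 in the body, and the TSS region held 0 to 7 reads per library, too few to give a level.

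At ANKRD37 the start had more reads in WT hypoxia too, by a smaller factor than the body. The TSS region had 43.5 and 48.8 CPM in WT normoxia and 189 and 269 CPM in WT hypoxia, a log2 difference of 2.31 (SE 0.202). The HIF1A-/- libraries had 40.2 and 36.0 CPM in normoxia and 40.4 and 39.9 CPM in hypoxia (log2 difference 0.08, SE 0.212, edgeR adjusted p = 1). The pausing index divides the read density of the TSS region by that of the body. WT normoxia libraries had indices of 105 and 111 and WT hypoxia libraries of 32.9 and 14.6. Without HIF1A it ran from 110 to 171 over the 4 libraries, with a log2 difference of 0.28 (SE 0.442, edgeR adjusted p = 1).

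In WT cells LOC105370526 had the same order of values at a much higher index. Its TSS region had 29.3 and 52.5 CPM in WT normoxia and 166 and 297 CPM in WT hypoxia (log2 difference 2.51, SE 0.300). The pausing index was 628 and 1325 in WT normoxia and 151 and 155 in WT hypoxia. TSS levels without HIF1A were 53.9 and 57.4 CPM in normoxia and 56.4 and 68.8 CPM in hypoxia (log2 difference 0.17, SE 0.298, edgeR adjusted p = 1), and the index moved by -0.01 (SE 0.371, edgeR adjusted p = 1).

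FUT11 had no more reads at its TSS in WT hypoxia than in normoxia. It had 163 and 156 CPM in WT normoxia and 143 and 128 CPM in WT hypoxia, so both hypoxic libraries were slightly the lower (log2 difference -0.24, SE 0.150). The pausing index was 42.0 and 48.0 in WT normoxia and 14.9 and 11.5 in WT hypoxia. HIF1A-/- libraries had 139 to 166 CPM at the TSS and indices of 34.6 to 51.2, with no call for either (log2 differences 0.05, SE 0.152, and 0.22, SE 0.236, edgeR adjusted p = 1 for both). The median index over 14494 genes lay between 44.1 and 47.6 in the 8 libraries. Among all genes, 0% of TSS regions and 0% of pausing indices were called in HIF1A-/- cells by edgeR, with 77 TSS regions higher and 58 lower, and 108 indices higher and 121 lower, at an unadjusted p under 0.05.

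**Figure D3:**
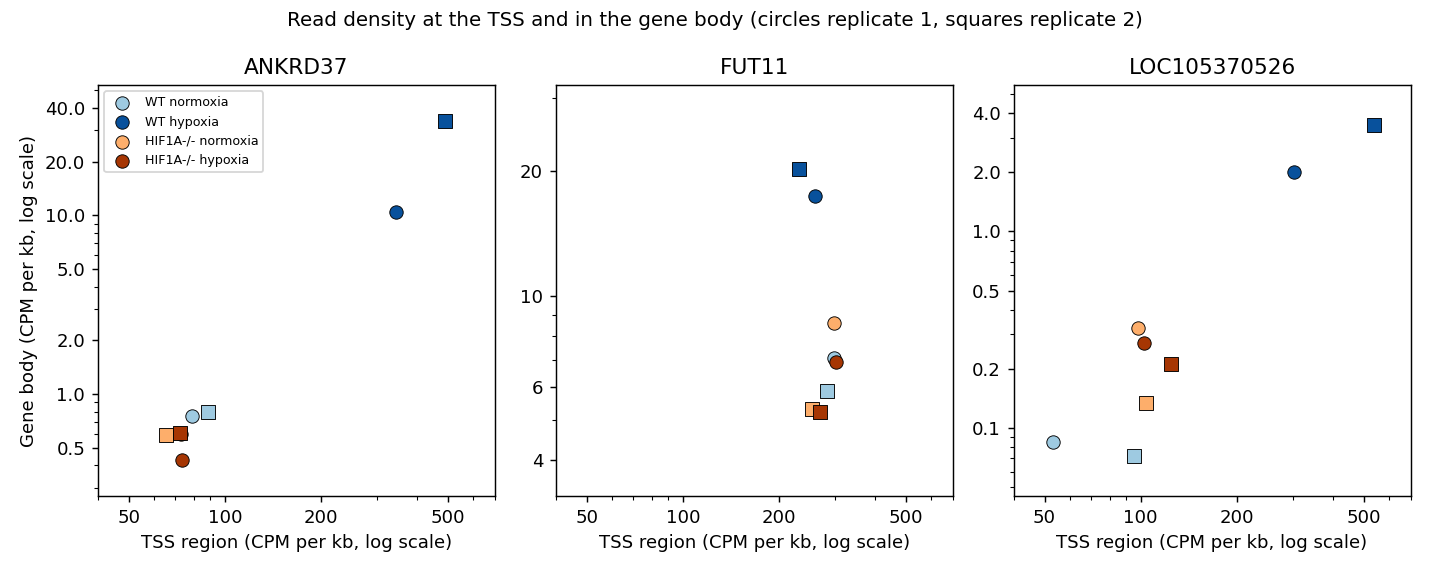
Read density (CPM per kb, log axes) in the TSS region (horizontal) and in the gene body (vertical) for ANKRD37, FUT11 and LOC105370526, 1 point per library (circles replicate 1, squares replicate 2). The 2 WT hypoxia libraries stand apart up and to the right for ANKRD37 and LOC105370526, and apart upwards only for FUT11, while all HIF1A-/- libraries lie near WT normoxia for ANKRD37 and FUT11.

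Genes within 50 kb were then read for the same comparison. There were 26 such neighbours, of which 23 had a testable body. In WT hypoxia 3 of the 23 were called higher by edgeR, where 0.431% of all bodies were, and none was called lower. With the replicate number as a block the count was 6 of 23, where 3.73% of all bodies were called higher and 1.77% lower. None of the 23 was called in HIF1A-/- cells in either fit.

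The ANKRD37 neighbourhood held 2 of the 3. C4orf47, whose start lies 32.6 kb downstream on the same strand, had 4.06 and 4.91 CPM in WT normoxia and 18.4 and 38.6 CPM in WT hypoxia (log2 difference 2.67, SE 0.461, edgeR adjusted p = 0.0979). LRP2BP, which encodes a protein that binds the receptor megalin and starts 17.7 kb upstream on the opposite strand, had 2.43 and 3.03 CPM and then 8.98 and 16.1 CPM (log2 difference 2.20, SE 0.365, adjusted p = 0.0847). Without HIF1A, C4orf47 differed by -0.08 and LRP2BP by -0.19 (edgeR adjusted p = 1 for both). SNX25 (0.53, SE 0.127), UFSP2 (0.61, SE 0.228) and CCDC110 (0.92, SE 0.351) were called only with the replicate block, with edgeR adjusted p of 0.0349, 0.0823 and 0.0201. All 5 genes tested around ANKRD37 thus had positive estimates in WT cells. UFSP2 shares 707 bp with the ANKRD37 body on the opposite strand.

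At the HIF1A locus, SNAPC1, a subunit of the small nuclear RNA activating complex that starts 11.3 kb upstream of LOC105370526 on the opposite strand, rose in WT hypoxia. It had 41.5 and 41.7 CPM in normoxia and 68.6 and 89.7 CPM in hypoxia (log2 difference 0.93, SE 0.157, edgeR adjusted p = 0.0894), and -0.07 (SE 0.156, adjusted p = 1) in HIF1A-/- cells. HIF1A, whose body shares 32703 bp with that of LOC105370526 on the opposite strand, differed by 0.01 (SE 0.156, edgeR adjusted p = 0.987) in WT cells and 0.14 (SE 0.156, adjusted p = 1) in HIF1A-/- cells. HIF1A-AS2 lies wholly inside LOC105370526 on the same strand and its body was listed at 0, as for all bodies so placed. Its TSS region, which starts 2.0 kb into LOC105370526, had 0 and 3 reads in WT normoxia and 42 and 117 reads in WT hypoxia (log2 difference 5.21, SE 0.791, edgeR adjusted p = 0.0686). It was 1 of 22 neighbouring TSS regions called higher, where 0.046% of all TSS regions were, and 3 of 22 were with the replicate block, where 0.789% were. Reads there cannot be told apart from those of LOC105370526 itself. This TSS region had 3, 4, 4 and 4 reads in the HIF1A-/- libraries. HIF1A-AS1, which starts 55.3 kb downstream of the LOC105370526 start, was not called (0.57, SE 0.496, edgeR adjusted p = 0.897).

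The body of no neighbour of the other 6 genes was called in either fit. The 7 genes tested around FUT11 ran from -0.32 to 0.52 in WT cells. Among them SEC24C, which ends 65 bp before the FUT11 region on the same strand, had 58.7 and 52.8 CPM in WT normoxia and 53.7 and 51.4 CPM in WT hypoxia (log2 difference -0.09, SE 0.132, edgeR adjusted p = 0.908). The 3 around MBOAT4, namely DCTN6, LEPROTL1 and SARAF, ran from -0.13 to 0.05. CEACAM20, next to CEACAM22P on the same strand, had a log2 difference of 1.27 (SE 0.808, edgeR adjusted p = 0.897) from at most 1.69 CPM. RSPH1 near UBASH3A, SMIM13 near NEDD9 and LOC339975 near LOC100506272 were at 0.53, -0.13 and 0.32, and TMPRSS3 and TFF1 near UBASH3A did not pass the filter.

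**Figure D4:**
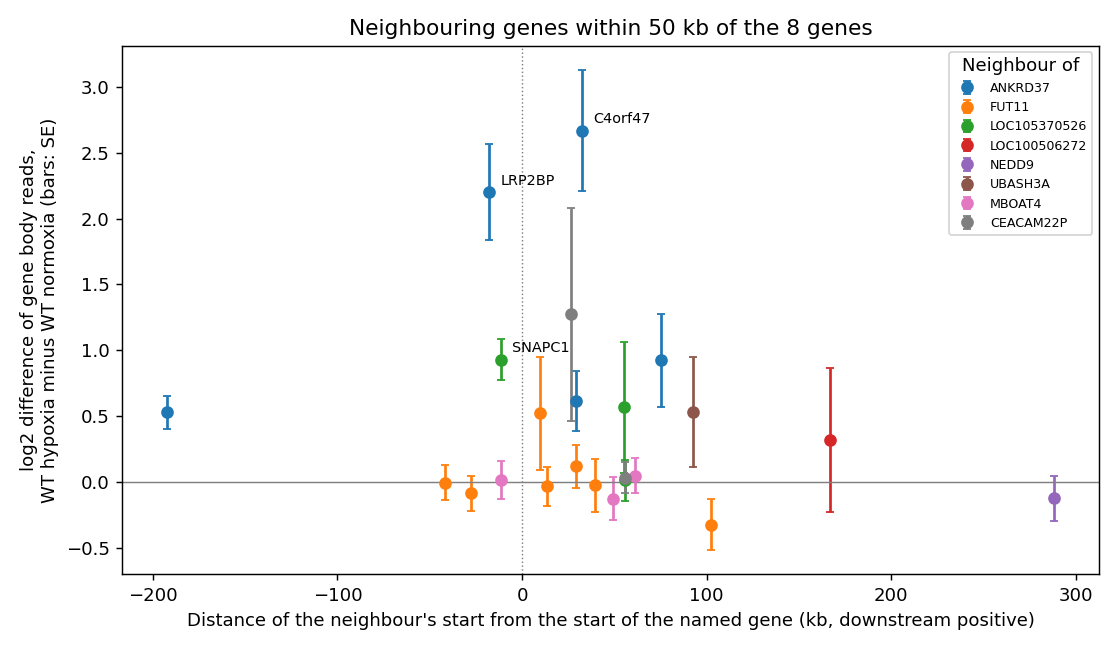
Log2 difference of gene body reads in WT cells, hypoxia minus normoxia, with bars of 1 SE, for the 23 tested neighbours against the distance of their start from that of the gene they flank (kb, downstream positive). Labels mark the 3 called at an FDR of 10%, C4orf47, LRP2BP and SNAPC1, at 32.6 kb downstream, 17.7 kb upstream and 11.3 kb upstream.

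The genes whose levels followed each of the 8 most closely were taken by Pearson correlation of log2 CPM over the 8 libraries, among 16686 bodies. These values describe 8 libraries that share groups and replicates, so the highest of many correlations are close to 1 by selection. ANKRD37 was nearest to WSB1 (r = 0.996), FAM162A (0.993) and its neighbour LRP2BP (0.993). FUT11 was nearest to the glycolytic enzymes GPI (0.996) and PGAM1 (0.991) and to the hormone gene STC2 (0.990). LOC105370526 was nearest to KCTD11 (0.986), RASSF7 (0.982) and ADM (0.975), the last encoding the vasodilator adrenomedullin. KCTD11 and RASSF7 were called in WT cells only with the replicate block (edgeR adjusted p = 0.0149 and 0.0191). CEACAM22P was nearest to BHLHE40 (0.983), LINC01115 (0.982) and TRPM2-AS (0.981). LINC01115 was not called in WT cells in either fit, and TRPM2-AS only with the replicate block (edgeR adjusted p = 0.025). BHLHE40, a transcriptional repressor, rose in WT cells (log2 difference 3.15, SE 0.497, edgeR adjusted p = 0.0708). Without HIF1A, BHLHE40 differed by 1.19 (SE 0.467, adjusted p = 1) and was called with the replicate block (edgeR adjusted p = 0.0257).

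The other 4 genes followed patterns with a different shape. LOC100506272 was nearest to LINC00511 (r = 0.997), FGD6 (0.993) and ERI1 (0.989), which were lower in HIF1A-/- cells in both conditions: LINC00511 had 32.6 to 77.7 CPM in the WT libraries and 10.4 to 18.0 CPM in the HIF1A-/- libraries. MBOAT4 was nearest to LRRC8B (0.994), SGF29 (0.985) and ZNF84 (0.984), and UBASH3A to LOC101927592, HOXC-AS2 and SLC22A18AS (0.994 to 0.996). NEDD9 was nearest to LOC100506606 (0.996), LHFPL3-AS2 (0.987) and KRT32 (0.983). LOC100506606 had log2 differences of 1.39 (SE 0.429) in WT cells and 1.26 (SE 0.425) in HIF1A-/- cells, neither of them called (edgeR adjusted p = 0.806 and 1). With the replicate block it was called in WT cells (edgeR adjusted p = 0.0424) and not in HIF1A-/- cells (0.197).

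Relatives of the 8 genes by family were read in the same fits. In WT hypoxia none was called by edgeR among 7 other fucosyltransferases (log2 differences -0.33 to 0.14), 10 other membrane-bound O-acyltransferases (-0.78 to 0.16), 2 other CAS scaffolds (-0.35 and 0.14), UBASH3B (-0.03), 3 other CEACAM genes (0.44 to 1.27) or 32 other numbered ANKRD genes (-0.50 to 1.15). With the replicate block 4 of them were called: CEACAM19 (0.58) and ANKRD45 (1.15) higher, BCAR1 (-0.35) and ANKRD52 (-0.49) lower. These are 2 higher and 2 lower of 55, or 3.64% each way, beside 3.73% higher and 1.77% lower over all bodies in that fit, so the counts are near the background. In HIF1A-/- cells none was called in either fit.

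A list of 38 familiar HIF targets gave the scale of the response. Of 37 tested, 26 were called higher in WT hypoxia, where 0.431% of all bodies were. With the replicate block 33 were, where 3.73% of all bodies were. The median log2 difference was 1.98, beside 1.95 for the 8 genes. ANGPTL4 had the highest value in that list, 3.81 (SE 0.422, edgeR adjusted p = 0.0196), below the estimates for ANKRD37 and LOC105370526. The order against ANKRD37 is not firm. The 95% interval of ANKRD37, 3.73 to 5.91, holds the ANGPTL4 value, and without WT hypoxia replicate 2 its estimate was 3.74. In HIF1A-/- cells 0 of 37 were called and the median was 0.06. With the block 1 was called higher, BHLHE40, where 0.03% of all bodies were. At TSS regions the list's median was 0.50 in WT cells and 2 of 34 were called higher, where 0.046% of all TSS regions were. The list and the 8 genes were both chosen with results of these libraries known, so their likeness is no independent evidence.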

How the data were processed

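The authors trimmed the reads, aligned them without splicing to GRCh37 with HISAT2 2.1.0, filtered them with SAMtools 1.5 and counted them with featureCounts (Subread 1.6.2), per the study's methods and the submitters' processing notes. They deposited raw counts for 1 TSS region and 1 gene body per RefSeq gene. From these counts, genes over 0.5 CPM in at least 2 libraries were kept for each region and scaled by TMM. One fit of 4 group means over the 8 libraries gave the log2 differences and their SE (edgeR 4.0.16 quasi-likelihood test in R 4.3.3). Benjamini-Hochberg adjustment covered every gene in the fit, and a gene was called at an FDR of 10%. The pausing index was tested in a fit of 16 columns, TSS and body of each library, with a term for each library. The 95% intervals are the estimate and normal quantile times SE. The quasi-likelihood test allows for the small number of libraries, so these intervals are narrower than its own would be. With 2 libraries a group, p-values measure the spread between these preparations. The fits were tested on simulated counts with a single spread, no replicate effects, and changes only in genes above a low level. That test does not cover genes with few reads or the replicate effects described below.

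Deviations of same-numbered libraries from their group means correlated in all 6 pairs of groups (r 0.484 to 0.790 for bodies, 0.216 to 0.519 for TSS regions), so replicate numbers were taken to pair the libraries, and the fit with the replicate number as a block was an alternative. Wherever the block is not named, the SE, intervals and adjusted p come from the fit that leaves out this pairing. Differences shared by replicates thus stay in their spread. That fit called 72 bodies higher in WT hypoxia, against 623 with the block. The others were DESeq2 1.42.0, library totals without TMM, no filter on low counts, the 4 HIF1A-/- libraries alone, and leaving out each library. The genes named are the 8 genes, all genes within 50 kb, the 3 genes most correlated with each, and lists of relatives, HIF targets and cell markers. The 8 genes and all lists were chosen with earlier results of these data known. Current names came from the RefSeq table of a later assembly by gene ID. Sequences and transcript starts came from GRCh37 and GENCODE.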

Additional observations from a re-analysis of the deposited data

How the results depend on the processing

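None of the 8 gene bodies was called in HIF1A-/- cells under any alternative run that tested it. UBASH3A was tested in 12 such runs, and the other genes in 13. Of the TSS regions and pausing indices, only those of ANKRD37, FUT11, LOC105370526 and CEACAM22P could be tested, and none was called. LOC100506272, NEDD9, UBASH3A and MBOAT4, at 0 TSS reads, had no such test. The replicate block changed no call of the 8 genes there. The lowest edgeR adjusted p with that block was 0.158, at the NEDD9 body. Over all genes the count called in HIF1A-/- cells was 0 bodies and 0 TSS regions, against 8 bodies by DESeq2 and 6 with the replicate block, and against 2 TSS regions with no filter on low counts and 1 with the replicate block. In fits leaving out each library in turn, the median log2 difference of the 8 genes ran from 1.62 to 2.30 in WT cells, from 0.063 to 0.55 in HIF1A-/- cells, from 1.03 to 1.85 for the difference of the responses, and from -3.40 to -2.78 for HIF1A-/- minus WT in hypoxia. The difference of the responses at UBASH3A ran from -3.48 to 3.07 in these fits, the lowest without HIF1A-/- normoxia replicate 2, which leaves a library with 0 reads. The difference between the lines at NEDD9 in normoxia ran from -0.13 to 0.56, below 0 without WT normoxia replicate 1 (-0.13) and without HIF1A-/- normoxia replicate 2 (-0.07). Depth limits ANKRD37, UBASH3A, MBOAT4, CEACAM22P and LOC100506272 in HIF1A-/- cells, where body counts of 0 to 75 stand behind a value.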
